A study of Musca domestica with 24 samples.

Results

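The genes described are the 200 most abundant head-limited genes on Muller elements B to E of the house fly, Musca domestica. They were chosen from 9526 genes with a LOC identifier on those elements, out of 16540 genes in the count table. A gene qualified when its mean level over the 12 testis libraries was under 1 CPM (counts per 1000000 counts of the library), which 1782 genes met. The 200 with the highest mean over the 12 head libraries were then taken, and elements A and F were left out. Head-limited therefore means only that the mean stayed under this limit in testis. The head level, the testis level and the gap between them chose the genes and are given as description, with no test. The rule did not use strain or temperature, so those contrasts were tested.

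Flies of the strains CSrab and IsoCS, described in the series as isogenic except for their proto-Y chromosomes, were raised at 29 °C or 18 °C. Head and testis were each sequenced in 3 replicates of CSrab at 29 °C, CSrab at 18 °C, IsoCS at 29 °C and IsoCS at 18 °C, which makes 24 libraries in 8 groups. All libraries were made from polyadenylated RNA with a stranded kit. The labels used here give neither the age of the flies, nor the sex of the heads, nor how many animals were pooled, nor which proto-Y each strain carries.

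A fly head holds the brain, the compound eyes, the antennae, the mouthparts, muscle, cuticle and fat body, so that RNA from a whole head mixes neurons, sensory cells and metabolic tissue. The testis is dominated by germ cells, which transcribe many genes that other tissues leave silent. Muller elements are the chromosome arms whose gene content is largely conserved among flies. A proto-Y is a young Y chromosome, carrying a male-determining factor and otherwise little changed from the chromosome it arose from. In libraries of a whole organ, fewer cells of a type and less RNA per cell cannot be told apart.

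Of the symbols checked against the labelled tissue, pdf, MdRdl and yp3 were higher in every head library than in any testis library. Gr2, caspase-1 and GST overlapped between the tissues, and no testis marker was checked. The pigment-dispersing factor gene pdf, which encodes a neuropeptide of clock neurons, lay between 4.89 and 23.3 CPM in head libraries and between 0 and 0.150 CPM in testis libraries. MdRdl, a receptor subunit for the transmitter GABA, lay between 1.47 and 3.58 CPM in head and between 0 and 0.256 CPM in testis. The gene yp3, on element A, lay between 105 and 1187 CPM in head and between 8.89 and 82.7 CPM in testis. The gustatory receptor gene Gr2 overlapped between the tissues, at 0.535 to 12.9 CPM in head and 0.138 to 0.737 CPM in testis. Levels of caspase-1 were 16.3 to 229 CPM in head and 21.5 to 39.4 CPM in testis. Those of GST were 893 to 2529 CPM in head (median 1551) and 1506 to 2459 CPM in testis (median 1860). Head libraries held 15690817 to 35694337 counts, with a median of 23815320, and testis libraries held 14916846 to 40005841 counts. Of the 200 genes, 185 had an entry in the RefSeq gene table, 184 of them protein coding and 1 listed as misc_RNA. None of the 200 carries a symbol other than its LOC identifier, so the genes are called by identifier and no role is given to them.

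The 200 genes spanned a wide range of head levels. The mean over the 12 head libraries was 16788 CPM for the first gene and 9.35 CPM for the last, with a median of 22.9 CPM. A mean of at least 100 CPM was reached by 37 genes and a mean of at least 20 CPM by 114. A single gene, LOC101898316, took 47.4% of the summed CPM of all 200, the first 3 genes took 62.4% and the first 10 took 73.5%. These levels are per gene and not per transcript length, so the order between genes is not an order of transcript numbers.

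**Figure D1:**
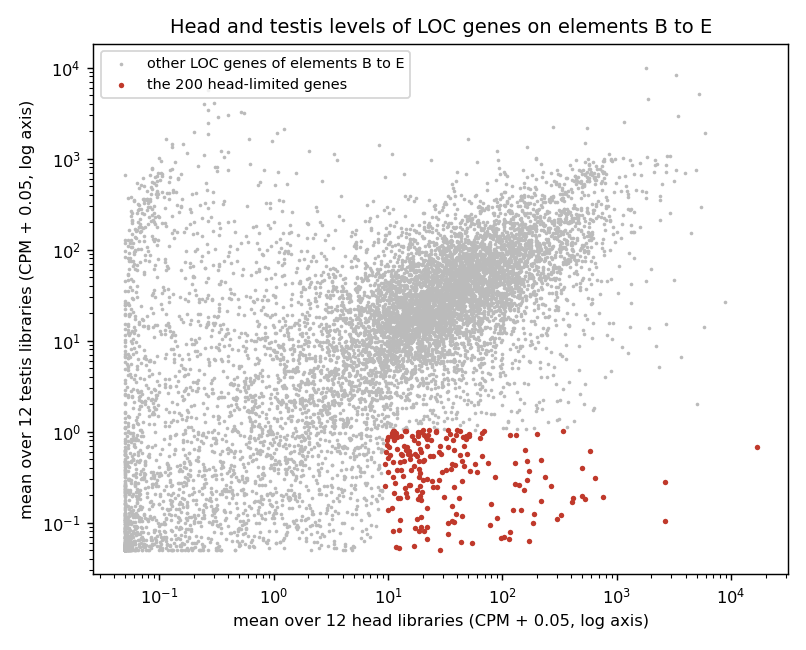
Mean level of each LOC gene on elements B to E over the 12 head libraries (horizontal axis) and the 12 testis libraries (vertical axis), both as CPM + 0.05 on log axes. Red points are the 200 head-limited genes, which lie under 1 CPM in testis and at 9.35 CPM or more in head, and grey points are the other genes of the same elements.

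LOC101898316, on element E, was measured at 13795, 21197 and 36129 CPM in CSrab heads at 29 °C and at 11234, 17162 and 29155 CPM in CSrab heads at 18 °C. In IsoCS heads it was at 13889, 17798 and 12102 CPM at 29 °C and at 7809, 11323 and 9864 CPM at 18 °C. The CSrab replicates spread over more than the IsoCS replicates, and the strains overlapped at both temperatures. In the 12 testis libraries the same gene lay between 0.0639 and 1.55 CPM.

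LOC101887669 and LOC101887335, both on element D, came next, with head means of 2663 and 2658 CPM. LOC101887669 lay between 2472 and 4584 CPM in CSrab at 29 °C, 1643 and 3076 CPM in CSrab at 18 °C, 2849 and 3414 CPM in IsoCS at 29 °C, and 1556 and 2365 CPM in IsoCS at 18 °C. In IsoCS heads its 29 °C libraries were all above its 18 °C libraries, and in CSrab heads the temperatures overlapped. LOC101887335 ran from 1369 to 4088 CPM over the 12 head libraries, with all 4 groups overlapping.

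Of the remaining 7 of the first 10, LOC109612511 (element D, mean 497 CPM), LOC101899009 (element D, 586 CPM) and LOC101899533 (element E, 416 CPM) varied least over the head libraries. Their coefficients of variation, the SD divided by the mean, were 0.275, 0.337 and 0.397. LOC101891293 (element C, 639 CPM) followed at 0.560. The other 3 differed by more than an order of magnitude between libraries. LOC105261733 (element C) ran from 52.2 CPM in CSrab at 18 °C replicate 1 to 2663 CPM in CSrab at 29 °C replicate 3. LOC105261864 (element C) had its lowest and highest values in the same libraries, 10.9 and 2336 CPM. LOC101897594 (element D) went the other way, with 1121 CPM in CSrab at 29 °C replicate 1 and 0.728 CPM in IsoCS at 29 °C replicate 2.

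At the lower edge of the list, the last 3 genes inside were LOC101901002 at 9.51 CPM, LOC101895567 at 9.41 CPM and LOC101900048 at 9.35 CPM. The first 3 outside it were LOC101898702 at 9.05 CPM, LOC101900863 at 8.93 CPM and LOC101898628 at 8.85 CPM. The last ranks are therefore separated by small steps. On the testis side, the highest means inside the limit were 0.990 CPM for LOC101896588, 0.986 CPM for LOC101895587 and 0.983 CPM for LOC101892654. The lowest outside it were 1.00 CPM for LOC101901561, 1.012 CPM for both LOC101898941 and LOC101896659.

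In testis the median of the 200 means was 0.367 CPM, and 1 gene had no count in any testis library. The limit applied to a mean, and 99 of the genes reached 1 CPM in at least 1 testis library, while 101 stayed under it in all 12. Summed over the 200, the testis level was 47.5 to 115 CPM per library. The limit that a count of 0 allows, 3 counts, corresponds to between 0.0750 and 0.201 CPM in the testis libraries.

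A few genes stood above the rest in single testis groups. LOC101888341 was at 0.279 to 0.425 CPM in the 3 IsoCS testis libraries at 29 °C, against 1.49, 3.78 and 1.18 CPM in IsoCS testes at 18 °C. LOC109611599 was at 2.62, 2.50 and 0.978 CPM in CSrab testes at 29 °C, against at most 0.240 CPM in IsoCS testes at 29 °C. At 18 °C it was at 1.34, 0.134 and 1.05 CPM in CSrab testes, against 0, 0 and 0.0763 CPM in IsoCS testes. The CSrab and IsoCS values of LOC109611599 did not overlap at 29 °C. At 18 °C the lowest CSrab and the highest IsoCS value both lay under the level of 3 counts, 0.201 and 0.114 CPM in those libraries. Overlap at 18 °C therefore cannot be judged. LOC101893350 reached 7.84 CPM in IsoCS testes at 29 °C replicate 2 and stayed at or under 0.690 CPM in the other 11 testis libraries. These 3 genes are named because a testis group mean reached 2 CPM, and they were picked out after their values were seen, so no test is given.

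The genes were spread over all 4 elements. Element B held 37 (18.5% of the 200, against 20.2% of the 9526 genes they were chosen from) and element C held 46 (23%, against 25.8%). Element D held 51 (25.5%, against 23.4%) and element E held 66 (33%, against 30.6%). Each element's share of the list was within 3 percentage points of its share of the genes available. The 200 genes lay on 170 scaffolds of the authors' assembly, and 21 scaffolds held more than 1, with 51 genes in all.

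The 200 genes together took 2.06% to 6.49% of all counts in a head library. The mean share was 4.63 ± 1.73% in CSrab at 29 °C, 3.77 ± 1.39% in CSrab at 18 °C, 3.37 ± 0.381% in IsoCS at 29 °C and 2.41 ± 0.315% in IsoCS at 18 °C (SD, n = 3 each). The highest shares were 6.49% and 5.28%, in replicate 3 of CSrab at 29 °C and at 18 °C, and the 3 CSrab libraries at 29 °C ran from 3.06% to 6.49%, a wider range than that of the 4 group means. Without LOC101898316 the shares were 2.26 ± 0.598%, 1.85 ± 0.474%, 1.91 ± 0.105% and 1.45 ± 0.142% in the same order of groups. The 95% Wilson intervals reached at most 0.00977 percentage points to either side, so counting error is small beside the spread between replicates. These intervals cover counting error only.

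**Figure D2:**
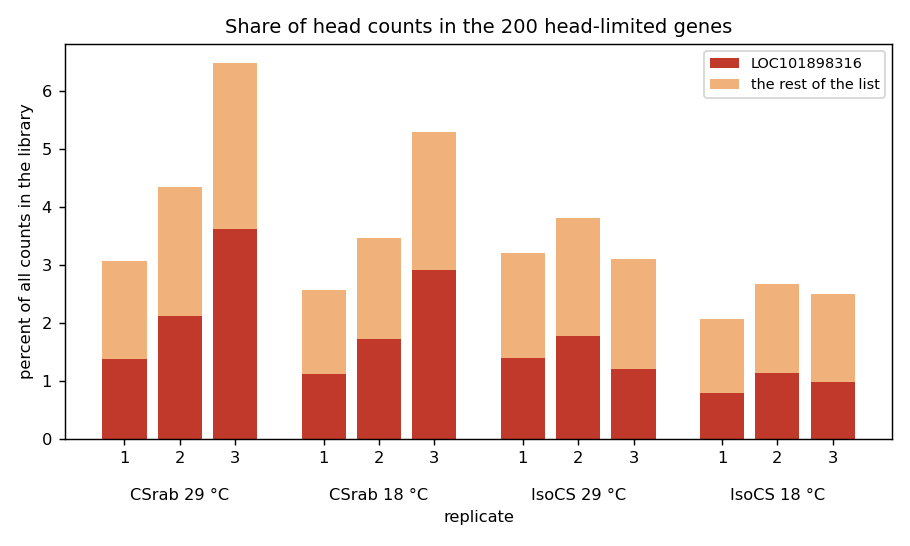
Percent of all counts in each head library that fell on the 200 head-limited genes, with the part of LOC101898316 in red and the rest of the list in orange; each bar is 1 library. The bars run from 2.06% to 6.49%, with replicate 3 highest in both CSrab groups.

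Steadiness over the 12 head libraries differed widely between the genes. The coefficient of variation ran from 0.124 to 3.20 with a median of 0.416. It was under 0.25 for 41 genes and over 1 for 26. Of the 200, 174 were at 1 CPM or more in every head library, 26 were under 1 CPM in at least 1, and 8 had no count in at least 1. For 15 genes, the mean without their highest library would have fallen under the level of the last gene on the list.

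The steadiest was LOC101896260 (element C), at 12.4 to 18.1 CPM across the head libraries, with a coefficient of variation of 0.124. LOC101896704 (element D) followed with 0.125, and lay between 7.68 and 13.2 CPM. LOC101899145, LOC101900160 and LOC105261665 had coefficients of 0.137, 0.147 and 0.154. These 5 genes kept their head level within a factor of 2 in every library, strain and temperature.

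The most variable genes owed their place to 1 or a few libraries. LOC101893350 (element E) was at 133 CPM in IsoCS at 29 °C replicate 1 and at or under 3.91 CPM in the other 11 head libraries, with a coefficient of variation of 3.20. LOC101901352 and LOC101901181, neighbours on 1 scaffold of element E, were highest in the same library, at 108 and 147 CPM. Elsewhere LOC101901352 stayed at or under 7.13 CPM and LOC101901181 at or under 49.7 CPM. LOC105261583 (element B) was instead highest in IsoCS at 29 °C replicate 2, at 114 CPM, and lowest in CSrab at 29 °C replicate 2, at 0.482 CPM.

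Genes of the list fell into sets that varied together over the 12 head libraries. Sets were formed by average-linkage clustering of log2(CPM + 0.5) at a Pearson correlation of 0.6, after the values were seen, so they are a description and carry no test. The 12 libraries share strains, temperatures and depth, and no p is given for any correlation. There were 32 sets, of which 5 held 10 or more genes and 119 genes together. The median correlation over all 19900 pairs of genes was 0.0946, the lowest was −0.974, and 261 pairs exceeded 0.9.

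Strain and temperature covered only part of this variation. The first principal component of the 200 genes held 45.7% of their variance, and the 4 groups of strain and temperature accounted for 44.9% of that component. The second held 28.5%, of which the groups accounted for 41.6%. More than 50% of each component was spread between replicates of 1 group.

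**Figure D3:**
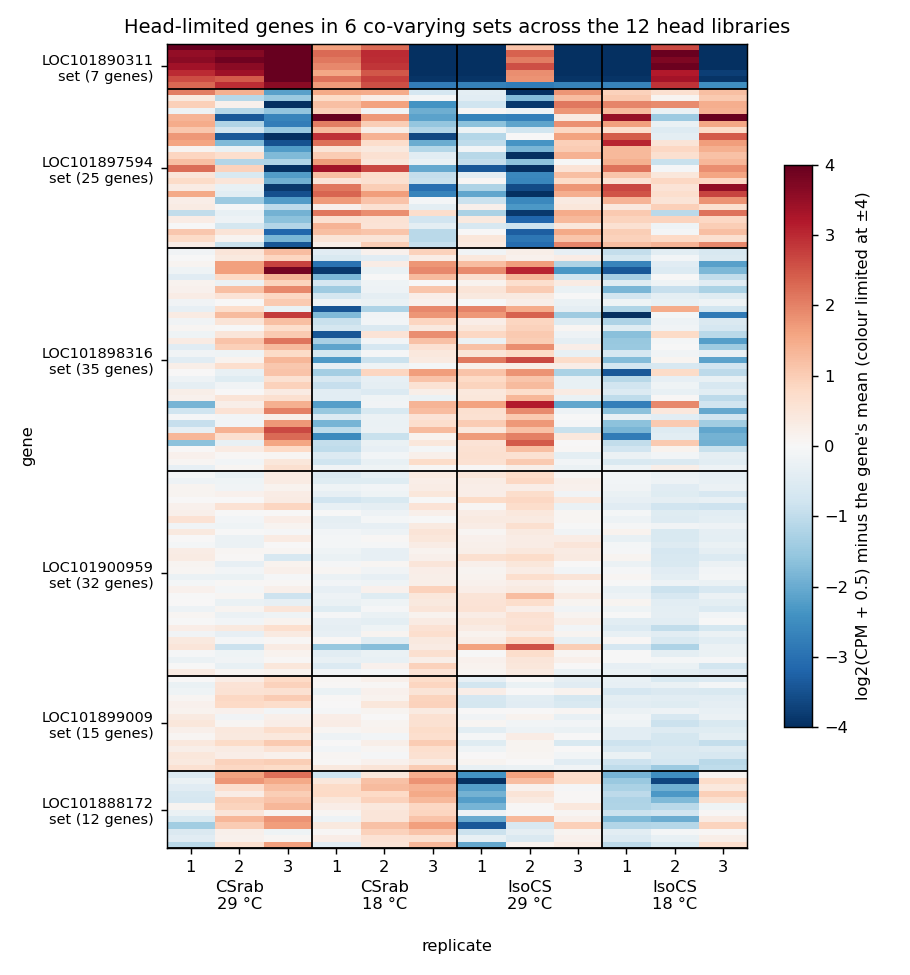
Level of each gene (rows) in each head library (columns) as log2(CPM + 0.5) minus the gene's mean over the 12 libraries, with colour limited at ±4. Rows are grouped into 6 co-varying sets, each called by its most abundant gene; the sets of LOC101897594 and LOC101898316 show opposite colours, and the set of LOC101890311 is either well above or far below its mean.

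The largest set held 35 genes and included LOC101898316, LOC105261733 and LOC105261864. Averaged over its genes, it stood highest in IsoCS at 29 °C replicate 2, at 1.28 above the mean on the log2 scale, and in CSrab at 29 °C replicate 3, at 1.27 above. It stood lowest in replicate 1 of IsoCS at 18 °C and of CSrab at 18 °C, at −1.36 and −1.33. A set of 25 genes led by LOC101897594 ran the opposite way, with a Pearson correlation of −0.944 and a Spearman correlation of −0.972 to the set of 35 over the 12 libraries. Leaving out the 2 libraries farthest from the median of the set of 35 gave −0.933. Neither pattern was particular to the list. At a correlation of at least 0.9, 234 genes outside the list went with the set of 35 and 262 with the set of 25. Of these, 44 and 45 had a testis mean under 1 CPM.

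The set of 25 was lowest in the same 2 libraries in which the set of 35 was highest, at −2.74 in IsoCS at 29 °C replicate 2 and −2.44 in CSrab at 29 °C replicate 3. Its highest means were 1.60 in IsoCS at 18 °C replicate 3, 1.51 in CSrab at 18 °C replicate 1 and 1.48 in IsoCS at 18 °C replicate 1. At 29 °C its mean was between −2.44 and 0.799 in CSrab and between −2.74 and 1.16 in IsoCS. At 18 °C it was between −1.24 and 1.51 in CSrab and between 0.255 and 1.60 in IsoCS. The temperatures overlapped within each strain.

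Depth moved with both sets. The correlation with log2 of the library total was 0.732 for the set of 35 and −0.675 for the set of 25, over 12 libraries. Without the 2 libraries farthest from each set's median, these became 0.560 and −0.378. The part of depth in the pattern was not tested.

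Among the 48 genes with a symbol that passed the filter on low counts in head, the one most like the set of 25 was caspase-1. It encodes a protease of programmed cell death. Its level was 110, 45.6 and 16.3 CPM in CSrab at 29 °C and 200, 143 and 43.2 CPM in CSrab at 18 °C. It was 57.7, 22.7 and 135 CPM in IsoCS at 29 °C and 229, 131 and 182 CPM in IsoCS at 18 °C. Its Pearson correlation with the set was 0.976 over the 12 libraries (Spearman 0.944), and 0.957 without the 2 libraries farthest from the median. SPN13, a serpin or serine protease inhibitor, followed at 0.916. SOD1, a superoxide dismutase, para-like, named after a sodium channel gene, and pdf ran most strongly against the set of 25, at −0.928, −0.920 and −0.895.

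Most like the set of 35 was GST, a glutathione S-transferase that conjugates foreign compounds. GST was at 1418, 2068 and 2146 CPM in CSrab at 29 °C and 893, 1315 and 1631 CPM in CSrab at 18 °C. It was at 1997, 2529 and 1472 CPM in IsoCS at 29 °C and 1067, 1856 and 1146 CPM in IsoCS at 18 °C. Its Pearson correlation with the set was 0.934 (Spearman 0.923). Next came para-like at 0.920 and CYP6D8, a cytochrome P450, at 0.903, and caspase-1 was the most opposed at −0.942. These symbols were taken as the most like or most opposed of 48, so their correlations are a description.

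A set of 32 genes led by LOC101900959 (element C, mean 216 CPM) moved over a narrower range, 1.09 on the log2 scale between its highest library, IsoCS at 29 °C replicate 2, and its lowest, IsoCS at 18 °C replicate 2. All 32 had a positive log2 change for 29 °C over 18 °C in IsoCS heads, with a median of 0.51, against 50.5% of all genes positive. In CSrab heads 23 of 32 had one, with a median of 0.11, against 51.1% of all genes positive. The set was built from the same libraries, so the shared direction is a property of how it was formed. Outside the list, 92 genes had a correlation of at least 0.9 with the set, 8 of them with a testis mean under 1 CPM. No gene of the set was called in any comparison described below, in which 0.0243% to 4.41% of all genes were called.

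A set of 12 genes led by LOC101888172 (element E) held 7 genes of element E. LOC101888172 was at 110, 502 and 768 CPM in CSrab at 29 °C and 94.2, 225 and 451 CPM in CSrab at 18 °C. In IsoCS it was at 31.1, 506 and 271 CPM at 29 °C and at 45.0, 29.9 and 178 CPM at 18 °C. The symbol most like this set was Gr2, the gustatory receptor gene, with a Pearson correlation of 0.975 (Spearman 0.951), and 0.950 without the 2 farthest libraries. Gr2 itself ran from 0.535 CPM in IsoCS at 29 °C replicate 1 to 12.9 CPM in CSrab at 29 °C replicate 3. All 12 genes had a positive log2 change for CSrab over IsoCS at both temperatures, against 48.2% of all genes at 18 °C and 49.6% at 29 °C. None was called, against 3.27% and 4.41% of all genes. An unadjusted p under 0.05 was found for 4 at 18 °C and 1 at 29 °C, against 16.4% and 20.6% of all genes. The set was built from the same libraries, so the shared direction is a property of how it was formed. Outside the list, 69 genes had a correlation of at least 0.9 with the set, 31 of them with a testis mean under 1 CPM.

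A set of 7 genes was either present or close to 0. It was led by LOC101890311 (element D), with 4 genes of element E and 3 of element D. LOC101890311 was at 263, 243 and 845 CPM in CSrab at 29 °C and at 37.4, 58.1 and 0.0497 CPM in CSrab at 18 °C. In IsoCS heads it was at 0.165, 26.8 and 0 CPM at 29 °C and at 0, 76.8 and 0 CPM at 18 °C. LOC101900269 (element E) was at 175, 195 and 513 CPM in CSrab at 29 °C and at 73.1, 120 and 0 CPM in CSrab at 18 °C. In IsoCS heads it was at 0, 77.6 and 0.0856 CPM at 29 °C and at 0, 235 and 0.255 CPM at 18 °C. High and low libraries were the same for both genes.

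In 5 libraries, namely CSrab at 18 °C replicate 3, IsoCS at 29 °C replicates 1 and 3 and IsoCS at 18 °C replicates 1 and 3, every one of the 7 genes had at most 4 counts. In the other 7 libraries all 7 were above 4 counts, except LOC101900204, which was at 0.0347 CPM in IsoCS at 29 °C replicate 2 where the other 6 were at 25.6 to 86.2 CPM. The presence of these transcripts therefore split replicates of 1 group in 3 of the 4 groups. At 29 °C all 7 had a positive log2 change for CSrab over IsoCS in head, against 49.6% of all genes. None was called there (4.41% of all genes were), and the lowest edgeR adjusted p was 0.0793, for LOC101900204. All 7 had a positive interaction, against 50.5% of all genes. None was called for the interaction, for strain at 18 °C or for temperature in either strain. Of all genes, 0.0243%, 3.27%, 0.283% (CSrab) and 0.697% (IsoCS) were called there. The 7 were grouped because they vary together, so their shared direction is 1 pattern and not 7 results. No fold is given, because most IsoCS libraries lay near 0. The set kept its 7 genes at a correlation limit of 0.7, on values scaled by the trimmed mean of M values (TMM), and on ranks over libraries, and held 8 at a limit of 0.5.

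**Figure D4:**
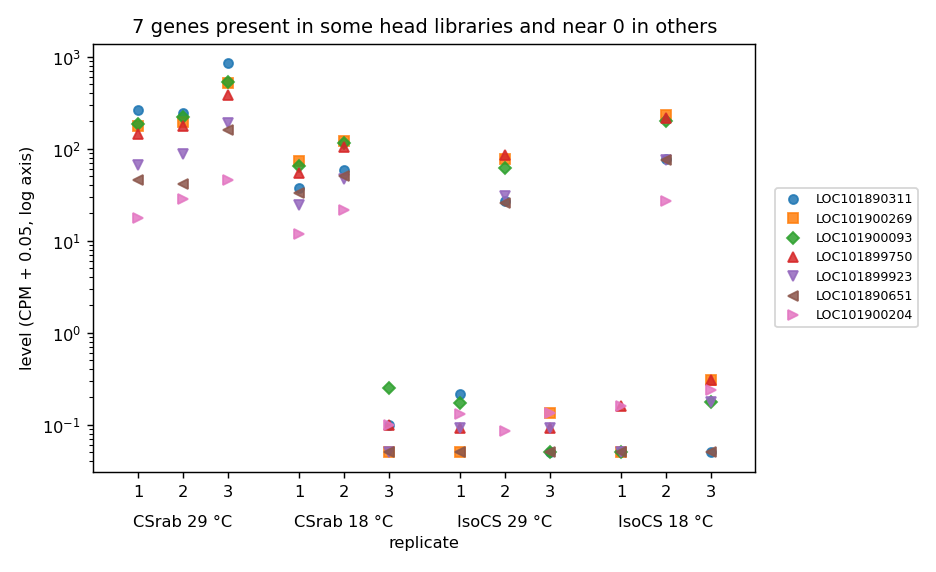
Level of each of the 7 genes of the LOC101890311 set in each head library, as CPM + 0.05 on a log axis. All 3 CSrab libraries at 29 °C hold the 7 genes, and in 5 other libraries every gene lies at most at 4 counts.

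Genome position was shared by part of this set. LOC101900269, LOC101900093, LOC101899750 and LOC101899923 lie on 1 scaffold of element E that holds 14 genes of the table, and their pairwise correlations were 0.998 to 0.999. LOC101890311 and LOC101890651 lie on 1 scaffold of element D, with a correlation of 0.976. A further 49 genes outside the list had a correlation of at least 0.9 with the set. The most like were LOC101891244 on element A (0.996), LOC101892639 with no element given (0.996, head mean 1170 CPM) and LOC101891677 with no element given (0.994). Of the 49, 23 had a testis mean under 1 CPM. If these genes have close copies, counts could be split or shared among them, and the files do not show this.

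Sharing of a scaffold went with similar values on part of the other scaffolds too. Over the 21 scaffolds with more than 1 gene of the list, the median of the scaffold's median correlation was 0.609, against 0.0946 over all pairs. LOC101898316, LOC101899533 and LOC101899688 lie on 1 scaffold of element E, with correlations of 0.799 to 0.953. The scaffold with the most genes of the list, 5 on element E, had a median correlation of −0.135. A scaffold of element C with 3 genes had a median of −0.029. The correlation of LOC101896457 with LOC101896928 was −0.070, and that of LOC101897797 with LOC101897962 was −0.019. Neighbours therefore did not always vary together.

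Strain was compared in head at each temperature, as CSrab over IsoCS, to ask how the proto-Y difference goes with the level of these genes. Counts were fitted with edgeR over all 12347 genes that passed the filter on low counts, among them all 200 genes of the list. A gene was called at an adjusted p under 0.05. Values from here on are TMM-scaled CPM, and fold changes are on the log2 scale.

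At 18 °C, 8 of the 200 genes were called (4%), against 3.27% of all genes tested, and all 8 were higher in CSrab heads, against 1.9% higher among all genes. At 29 °C, 11 were called (5.5%), against 4.41% of all genes tested, with 8 higher in CSrab heads (against 2.7% of all genes) and 3 lower (against 1.71% of all genes). The called share of the list was thus close to that of all genes at both temperatures. The median log2 change was 0.16 at 18 °C and 0.01 at 29 °C for the 200, against −0.02 and −0.01 for all genes tested. A positive change was found for 128 of the 200 at 18 °C (64%, against 48.2% of all genes) and for 102 at 29 °C (51%, against 49.6%). In the sets of 35, 32, 25, 15, 12 and 7 genes, 30, 27, 5, 15, 12 and 3 were positive at 18 °C. Genes of a set vary together, so the 200 are not independent results.

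Of the 14 genes called at either temperature, 5 were called at both, which is 62.5% of those called at 18 °C and 45.5% of those called at 29 °C. Over all genes tested 231 were called at both, 57.2% of those called at 18 °C and 42.5% of those called at 29 °C, so the overlap within the list was near that of all genes. All 5 were higher in CSrab at both temperatures, namely LOC101887556, LOC101896511, LOC109612178, LOC101900613 and LOC101900899. Elements B, C, D and E held 4, 1, 4 and 5 of the 14.

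LOC101900899 (element B) had the largest change among the genes called at 18 °C, with 13.2, 14.5 and 19.4 TMM-scaled CPM in CSrab heads, against 4.60, 3.46 and 4.74 TMM-scaled CPM in IsoCS heads. Its log2 change was 1.88 ± 0.184 (SE, edgeR adjusted p = 0.00117). At 29 °C it was at 16.0, 19.8 and 17.6 in CSrab heads, against 7.42, 7.29 and 8.34 in IsoCS heads, a log2 change of 1.21 ± 0.178 (edgeR adjusted p = 0.00597). The strains did not overlap at either temperature, and the call held in all 20 alternative fits at each temperature, left-out libraries included.

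LOC101900613 (element B) was at 68.5, 51.0 and 49.5 TMM-scaled CPM in CSrab heads at 18 °C, against 20.9, 13.4 and 13.4 in IsoCS heads. At 29 °C it was at 56.2, 51.1 and 33.4 in CSrab heads, against 17.3, 11.4 and 21.8 in IsoCS heads. The log2 changes were 1.82 ± 0.294 at 18 °C (edgeR adjusted p = 0.00962) and 1.48 ± 0.291 at 29 °C (edgeR adjusted p = 0.0197). Every CSrab library was above every IsoCS library at the same temperature. Unlike most of the called genes, LOC101900613 did not belong to the set led by LOC101899009. Its call held in 19 of 20 alternative fits at 18 °C and in 15 of 20 at 29 °C.

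**Figure D5:**
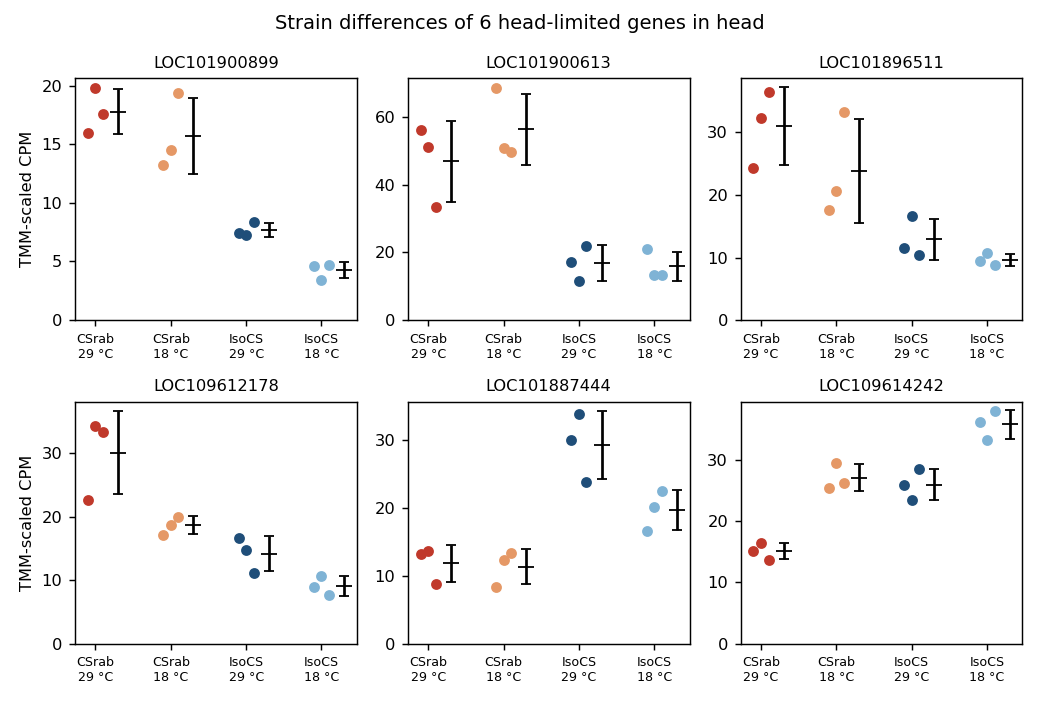
TMM-scaled CPM of 6 head-limited genes in the 12 head libraries. Points are libraries, and bars show the mean ± SD of 3 replicates; in the upper row and for LOC109612178 the CSrab libraries lie above the IsoCS libraries raised at the same temperature, and for LOC101887444 and LOC109614242 they lie below.

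LOC101896511 (element D) averaged 23.8 ± 8.27 TMM-scaled CPM in CSrab heads at 18 °C and 9.65 ± 0.935 in IsoCS heads (SD, n = 3 each; log2 change 1.30 ± 0.267, edgeR adjusted p = 0.0283). Its log2 change at 29 °C was 1.27 ± 0.264. The call of LOC101896511 held in 14 of 20 alternative fits at 18 °C and in 15 of 20 at 29 °C. LOC109612178 (element E) averaged 18.6 ± 1.41 in CSrab heads at 18 °C and 9.10 ± 1.54 in IsoCS heads, and 30.1 ± 6.51 in CSrab heads at 29 °C and 14.2 ± 2.77 in IsoCS heads. Its log2 changes were 1.03 ± 0.205 and 1.08 ± 0.203, about the same at both temperatures. The call of LOC109612178 held in 15 of 20 alternative fits at 18 °C and in 16 of 20 at 29 °C. LOC101887556 (element E) had log2 changes of 0.78 ± 0.161 at 18 °C and 0.94 ± 0.161 at 29 °C.

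LOC101898320 (element E) and LOC101888483 (element C) were called at 18 °C and not at 29 °C, and the interaction test given below called neither. LOC101898320 averaged 59.6 ± 8.89 TMM-scaled CPM in CSrab heads at 18 °C and 33.0 ± 7.29 in IsoCS heads. LOC101888483 averaged 21.3 ± 5.49 in CSrab heads and 12.2 ± 0.655 in IsoCS heads. The 18 °C call of LOC101888483 was lost in 10 of 20 alternative fits, 9 of them fits that left out 1 library, and that of LOC101898320 in 5 of 20. At 29 °C their log2 changes were 0.50 ± 0.173 and 0.59 ± 0.172, positive but not called (edgeR adjusted p = 0.137 and 0.0842).

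LOC101899688 and LOC101900041, both on element E, had log2 changes of 1.47 ± 0.254 and 1.37 ± 0.216 at 29 °C (edgeR adjusted p = 0.0119 and 0.00852). LOC101899688, on the scaffold of LOC101898316, was at 331, 584 and 617 TMM-scaled CPM in CSrab heads, against 177, 200 and 175 in IsoCS heads. LOC101900041 was at 178, 290 and 255 in CSrab heads, against 87.9, 98.0 and 94.3 in IsoCS heads. CSrab replicates spread more widely than IsoCS replicates in both genes, without overlap between the strains. LOC101900041 was also called in all 20 alternative fits.

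The 3 genes lower in CSrab at 29 °C were LOC101887444 (element D), LOC109614242 (element B) and LOC101894643 (element D). LOC101887444 was at 13.1, 13.6 and 8.72 TMM-scaled CPM in CSrab heads, against 30.0, 33.7 and 23.8 in IsoCS heads (log2 change −1.31 ± 0.233, edgeR adjusted p = 0.0136). LOC109614242 was at 15.2, 16.3 and 13.7 in CSrab heads, against 25.9, 23.4 and 28.5 in IsoCS heads (log2 change −0.78 ± 0.115, edgeR adjusted p = 0.00597). LOC101894643 averaged 30.8 ± 0.843 in CSrab heads and 41.9 ± 2.46 in IsoCS heads (SD, n = 3 each; log2 change −0.44 ± 0.104, edgeR adjusted p = 0.0421). The call of LOC101894643 was lost in 10 of 20 alternative fits, 7 of them fits that left out 1 library. None of the 3 was called at 18 °C, where their log2 changes were −0.79, −0.40 and −0.26.

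The most abundant gene was not called for strain. LOC101898316 averaged 24932 ± 11391 TMM-scaled CPM in CSrab heads at 29 °C and 13470 ± 2191 in IsoCS heads (SD, n = 3 each), and its log2 change was 0.89 ± 0.426 (edgeR adjusted p = 0.277). At 18 °C the log2 change was 0.93 ± 0.427 (edgeR adjusted p = 0.315).

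Of the 14 genes called for strain at either temperature, 9 belonged to the set of 15 led by LOC101899009, which also holds LOC101899009 and LOC101899533. Of the 15, 7 were called at 18 °C and 6 at 29 °C, against 3.27% and 4.41% of all genes. All 15 genes had a positive log2 change for CSrab over IsoCS at both temperatures, with medians of 0.78 at 18 °C and 0.81 at 29 °C. The set was built from the same libraries, so the shared direction is a property of how it was formed. For the same reason, the calls gathered in the set are not separate results. The symbol most like it was IR25a, an ionotropic chemosensory co-receptor, with a Pearson correlation of 0.847 (Spearman 0.797), and 0.768 without the 2 farthest libraries. Outside the list, 75 genes had a correlation of at least 0.9 with the set, 13 of them with a testis mean under 1 CPM.

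The strain counts depended on single libraries. At 18 °C the count of 8 became 3 without CSrab at 18 °C replicate 2, 2 without its replicate 3, 5 without IsoCS at 29 °C replicate 1, and 3, 3 and 1 without IsoCS at 18 °C replicates 1, 2 and 3. At 29 °C the count of 11 became 6 without CSrab at 29 °C replicate 2, and 5 and 6 without IsoCS at 29 °C replicates 1 and 2. A fit on only the 6 libraries compared gave 4 at either temperature, and DESeq2 gave 20 at 18 °C (against 6.88% of all genes it tested) and 22 at 29 °C (against 10.3% of all genes it tested). No named gene changed direction in any of these fits. For the fits with fewer libraries, the share of all genes called is not given here. Their counts therefore describe the fits and not a trait of the list.

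Developmental temperature was compared within each strain, as 29 °C over 18 °C, and few genes of the list passed the test. In CSrab heads 1 of the 200 was called (0.5%), against 0.283% of all genes tested and 0.146% called lower. It was LOC109614242, at 15.2, 16.3 and 13.7 TMM-scaled CPM at 29 °C, against 25.4, 29.5 and 26.3 at 18 °C. Its log2 change was −0.84 ± 0.115 (edgeR adjusted p = 0.0263). The temperatures did not overlap. In IsoCS heads it was at 25.9, 23.4 and 28.5 at 29 °C, against 36.1, 33.2 and 38.0 at 18 °C, a log2 change of −0.46 ± 0.114 that was not called (edgeR adjusted p = 0.101).

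With the replicate number as a block, no gene of the list was called in CSrab heads, so the call of LOC109614242 did not hold there. It was also lost in a fit on the CSrab libraries alone and in 7 of 12 fits that left out 1 library. Without CSrab at 29 °C replicate 1 the 1 gene called was another one, higher at 29 °C. The count in CSrab heads was 4 without CSrab at 29 °C replicate 3 and 0 without CSrab at 29 °C replicate 2, any single CSrab library at 18 °C, IsoCS at 29 °C replicate 1 or IsoCS at 18 °C replicate 1. The share of all genes called in those fits is not given here. DESeq2 called 7 of the 200 in CSrab heads (against 5.97% of all genes it tested). An unadjusted p under 0.05 was found for 25 of the 200 (12.5%, against 16.2% of all genes), and the median log2 change was 0.04, against 0.01 for all genes.

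In IsoCS heads none of the 200 was called by edgeR, against 0.697% of all genes tested, 0.381% higher and 0.316% lower at 29 °C. An unadjusted p under 0.05 was found for 51 of the 200 (25.5%, against 18.7% of all genes), and DESeq2 called 16 of the 200 (against 5.92% of all genes it tested). The median log2 change was 0.16 for the 200, against 0.01 for all genes, and 117 were positive (58.5%, against 50.5%). In the sets of 35, 32, 25, 15, 12 and 7 genes, 34, 32, 0, 12, 6 and 0 were positive. In the same order, 14, 21, 1, 5, 0 and 1 had an unadjusted p under 0.05. Genes of a set vary together, so these are not independent results. Closest to a call was LOC101892912 (element B), at 67.4, 66.1 and 52.5 TMM-scaled CPM at 29 °C, against 32.6 to 34.1 at 18 °C. Its log2 change was 0.89 ± 0.173 (edgeR adjusted p = 0.0508). In CSrab heads the same gene was at 43.2, 46.2 and 53.5 at 29 °C, against 24.5, 27.4 and 38.5 at 18 °C, without overlap and also not called (log2 change 0.66 ± 0.172, edgeR adjusted p = 0.117). The IsoCS count became 1 to 3 without CSrab at 29 °C replicate 1 or 3, CSrab at 18 °C replicate 1 or 3, or IsoCS at 29 °C replicate 3. For those fits too, the share of all genes called is not given here.

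The 4 comparisons share libraries in pairs, and their values are set side by side for the sets only as description. For 29 °C over 18 °C, the set of 35 led by LOC101898316 had a median log2 change of 0.66 in CSrab heads, with 31 genes positive, and 1.03 in IsoCS heads, with 34 positive. The set of 25 led by LOC101897594 had medians of −0.86 in CSrab heads, with 2 genes positive, and −1.14 in IsoCS heads, with none. Of all genes, 51.1% were positive in CSrab heads and 50.5% in IsoCS heads. Each set was built from these same libraries, so its shared direction is a property of how it was formed. No gene of either set was called for temperature, against 0.283% of all genes in CSrab heads and 0.697% in IsoCS heads. Both sets varied widely among replicates, as given above for their libraries.

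The difference between the temperature effects of the strains was tested as an interaction, CSrab minus IsoCS. None of the 200 was called by edgeR, against 0.0243% of all genes tested, and none by DESeq2, against 0.358% of the genes it tested. An unadjusted p under 0.05 was found for 14 of the 200 (7%, against 4.97% of all genes), and the median interaction was −0.18, against 0.00 for all genes. A positive interaction was found for 63 of the 200 (31.5%, against 50.5% of all genes). In the sets of 35, 32, 25, 15, 12 and 7 genes it was positive for 7, 0, 18, 6, 1 and 7. Genes of a set vary together, so the 200 are not independent results. In the authors' deposited table, 197 of the 200 had an adjusted p of the interaction in head and none was under 0.05, with the lowest at 0.122. Over all 13077 genes with such an adjusted p in the authors' deposited table, 50 (0.382%) were under 0.05.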

How the data were processed

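Per the labels' protocols, head and testis were homogenized in TRIzol, RNA was purified on columns, and its polyadenylated part was made into stranded libraries. Per the submitters' processing notes, HISAT2, SAMtools, HTSeq and DESeq2 were used; their versions, roles and the genome build are not given in the sources used here. The authors deposited raw counts per gene with a Muller element and scaffold for part of the genes, and a table with adjusted p-values of the strain by temperature interaction.

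CPM were computed here as count over the library total. Head counts were fitted with edgeR 4.0.16 in R 4.3.3 (filterByExpr, minimum count 10 and minimum total 15; TMM; glmQLFit and glmQLFTest, 1 coefficient per group, 8 residual degrees of freedom; Benjamini-Hochberg over 12347 genes). DESeq2 1.42.0, other scalings, filters, replicate blocks and left-out libraries were alternatives. Spread between the labelled biological replicates is what the p-values measure.

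Samples with the same number in CSrab heads at 29 °C and 18 °C deviated together from their group means (correlations 0.552, 0.261 and 0.456), so the block is given beside that result. Named genes were the 10 most abundant, those at the edges of the rule, the 5 most and 5 least variable, and up to 6 called genes per direction and comparison without overlap and with at least 5 CPM. The genes, lists and alternatives were chosen with earlier results of these data known. The choice of sets and 3 alternatives came after the data were seen.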

Additional observations from a re-analysis of the deposited data

How the results depend on the processing

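Over the alternatives run, the 16 named gene results gave 321 refits, of which 255 kept the call, 66 lost it and 0 reversed its direction; LOC101900899 at both temperatures and LOC101900041 at 29 °C kept the call in all. Leaving out 1 library gave 1 to 10 called genes for strain at 18 °C (8 with all libraries), 5 to 14 for strain at 29 °C (11), 0 to 4 for temperature in CSrab (1) and 0 to 3 for temperature in IsoCS (0). DESeq2 called 20, 22, 7 and 16 in the same comparisons, against 6.88%, 10.3%, 5.97% and 5.92% of all genes it tested. A fit on only the groups compared called 4, 4, 0 and 0. For temperature in CSrab the count was 2 with a filter at a mean of 10 counts, 2 without LOC101898316 in the counts, 0 with the list ranked on TMM-scaled CPM, 0 with a list limited to under 1 CPM in every testis library, and 0 with the replicate block or a replicate block within strain. For temperature in IsoCS it was 1 without LOC101898316, 12 with a replicate block within strain and 0 with the replicate block. Block fits for strain called 9 at 18 °C and 12 at 29 °C. Deviations of same-numbered samples correlated at 0.183, 0.339 and 0.0242 for strain at 18 °C and at 0.00823, −0.331 and −0.624 at 29 °C. For the IsoCS temperatures the correlations were −0.140, 0.228 and 0.365. In each comparison the lowest value was under any in CSrab heads, and the numbers were not taken to pair these samples. The interaction count was 0 in every alternative run. Where a count moved, the cause was not tested, apart from fits with fewer libraries. Except for DESeq2, the share of all genes called in each refit is not given here. The counts of those refits therefore cannot be set against all genes.

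The list rests on a mean in testis. Requiring under 1 CPM in every testis library kept 101 of the 200, and the mean share of head counts became 1.47%, against 3.54 ± 1.28% (SD, n = 12). LOC101898316 exceeded 1 CPM in part of the testis libraries and is not on that stricter list. That gene alone held 0.781% to 3.61% of the counts in a head library. Ranking on TMM-scaled CPM kept 188, at 3.50%. The set of 35 held 33 genes at a correlation limit of 0.7, 73 at 0.5, 50 on TMM-scaled values and 64 on ranks. The set of 25 held 22, 40, 29 and 30.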
